A study of Mus musculus with 12 samples.

Results

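The transcripts described here are those of 10 immediate early genes, Fos, Fosb, Jun, Junb, Jund, Egr1, Atf3, Ier2, Dusp1 and Zfp36, measured by RNA sequencing in newborn mouse skull. They were taken by symbol from a table of 23358 genes, as genes that enzymatic tissue digestion and ERK signalling are known to induce, and all 10 passed the filter on low counts that kept 16190 genes. The tissue was the frontal bone at postnatal day 3, with the nasal bone, the coronal suture and the frontonasal suture left attached. The 12 samples formed 4 groups of 3: C57BL/6 wild type (replicates 1, 2 and 3), C57BL/6 FGFR2 C342Y/+ (replicates 4, 5 and 6), BALB/c wild type (replicates 13, 14 and 15) and BALB/c FGFR2 C342Y/+ (replicates 16, 17 and 18). The mutants are heterozygous for the C342Y change in the receptor FGFR2, a model of Crouzon syndrome, a human disorder of premature suture fusion. According to the labels the tissue of every group was digested in collagenase type II and trypsin before it was homogenised in Trizol. No undigested tissue is among the samples analysed here, so the level of these genes in intact bone and their level after digestion cannot be told apart. Nothing in the labels says that replicates are separate animals, so p-values measure the spread between these samples only.

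Immediate early genes are transcribed within minutes of a stimulus without new protein synthesis, and their RNAs are short-lived. Growth factor receptors such as FGFR2 reach them through the RAS, RAF, MEK and ERK kinases, which phosphorylate ternary complex factors bound with serum response factor at promoters of genes such as Fos and Egr1, while stress kinases act on Jun and ATF factors. FOS and JUN proteins pair to form AP-1, which in bone acts in osteoblasts and is required for osteoclast formation. Dissociation of tissue with warm enzymes is itself a well-known inducer of the same genes.

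Promoter sequence is shown for 3 of the AP-1 genes because the report turns on how these genes differ from one another. RefSeq (build GRCm38.p6) gave a promoter for 8 of the 10 genes, with no entry for Egr1 or Ier2, and the 250 bases before the start are printed 5′ to 3′ on the gene's strand for Fos (chr12:85473640-85473889, plus strand), Fosb (chr7:19310046-19310295, minus strand) and Jun (chr4:95052223-95052472, minus strand). Capitals mark the cAMP response half-site TGACG and, in Jun, the ATF/JUN site TGACATCA.
Fos: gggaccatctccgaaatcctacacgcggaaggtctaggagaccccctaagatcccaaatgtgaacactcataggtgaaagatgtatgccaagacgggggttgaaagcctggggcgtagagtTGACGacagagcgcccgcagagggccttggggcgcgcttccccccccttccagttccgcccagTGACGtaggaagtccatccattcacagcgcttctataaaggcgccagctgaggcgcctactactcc
Fosb: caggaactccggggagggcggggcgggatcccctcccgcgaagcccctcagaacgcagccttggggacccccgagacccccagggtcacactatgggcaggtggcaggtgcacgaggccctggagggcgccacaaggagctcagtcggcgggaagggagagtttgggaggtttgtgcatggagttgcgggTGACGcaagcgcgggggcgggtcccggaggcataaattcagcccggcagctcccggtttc
Jun: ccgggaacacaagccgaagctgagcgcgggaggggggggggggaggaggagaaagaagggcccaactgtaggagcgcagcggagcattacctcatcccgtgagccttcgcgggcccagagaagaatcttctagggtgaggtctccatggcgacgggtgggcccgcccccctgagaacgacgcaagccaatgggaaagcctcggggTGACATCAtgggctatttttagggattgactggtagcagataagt
The half-site, searched on both strands, lay 66 and 129 bases before the start of Fos and 60 bases before that of Fosb. It was in 5 of the 8 promoters (Fos, Fosb, Junb, Atf3 and Dusp1), and 17.8% of 32851 RefSeq promoters of the same length hold it. Jun held TGACATCA 45 bases before its start, a word found in 2.93% of promoters. The full element TGACGTCA, which contains the half-site on each strand, was in Dusp1 alone of the 8, against 1.55% of promoters. The CArG box, the motif of serum response factor, was in Zfp36, 58 bases before the start, against 1.47% of promoters. The search covered only the 250 bases before each start, so a motif farther upstream would not be found. The GC box GGGCGG was in 6 of 8 against 32.7%, and the AP-1 word TGAGTCA was in 0 of 8 against 4.46%. For Jund the RefSeq start lies 1210 bases upstream of the GENCODE start, so its window may not be the promoter used and is not printed. The annotations also differ for Zfp36, Atf3 and Dusp1, whose GENCODE starts lie upstream of the starts in the deposited table and outside the windows searched, so the motifs given for these 3 genes belong to the RefSeq window only.

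Total gene counts ran from 27181658 to 46521546 per library, and each of the 10 genes had at least 7950 counts in each library. Levels are given in CPM, counts-per-million values in which each library's size is first scaled by TMM, a method that corrects for a few genes taking a large share. All C57BL/6 libraries carry 1 run identifier in the labels and all BALB/c libraries another, so strain and flow cell cannot be told apart. Sex-linked transcripts were unevenly spread over the groups. Uty, Kdm5d, Eif2s3y and Ddx3y, all on the Y chromosome, summed to between 145 and 185 CPM in the 3 C57BL/6 wild type libraries and in 1 library of each other group (replicates 6, 15 and 16), and to at most 1.36 CPM in the other 6. Fgfr2, the mutated gene, whose alleles are counted together, averaged 248.8 CPM ± 35.8 (SD, n = 3) in C57BL/6 wild type, 360.7 ± 20.6 in C57BL/6 mutants, 282.1 ± 11.4 in BALB/c wild type and 299.9 ± 25.0 in BALB/c mutants. Osteoblast markers (9 of 9 listed were in the table) summed to between 67200 and 154000 CPM, and none of them was at 0 in any library. In bulk RNA, fewer cells of a type and less RNA per cell cannot be told apart.

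The 10 genes were abundant in each group, and per kilobase of the deposited gene length none ranked below 463rd among the 16190 genes. Together they took between 1.07% of all counts (C57BL/6 wild type replicate 2) and 1.904% (BALB/c wild type replicate 15). On this per-kilobase scale Fos, which encodes a FOS family protein of AP-1, ranked 10th in C57BL/6 wild type and 11th in each other group. Its level was 1276 CPM per kilobase ± 112 (SD, n = 3) in C57BL/6 wild type, 1539 ± 195 in C57BL/6 mutants, 1976 ± 123 in BALB/c wild type and 1738 ± 74.5 in BALB/c mutants. Zfp36, which encodes tristetraprolin, a protein that destabilises short-lived mRNAs, was at ranks 20 to 33, and Egr1, a zinc finger transcription factor, at ranks 27 to 47. Zfp36 ranked ahead of Egr1 in both C57BL/6 groups and behind it in both BALB/c groups. Fosb and Jun, at 427.3 ± 37.8 and 411.8 ± 26.2 CPM per kilobase in C57BL/6 wild type, did not differ beyond their spread there. In BALB/c mutants Fosb, at 770.9 ± 28.4, stood above Jun, at 542.4 ± 34.9. The lowest ranks belonged to Atf3 (176 to 240), Dusp1 (174 to 216) and Jund (180 to 463). Jund moved furthest along this order, from 85.5 CPM per kilobase ± 2.07 in C57BL/6 wild type to 227.9 ± 18.2 in BALB/c wild type.

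The 10 genes lie on 7 chromosomes, in the coordinates of the deposited table, for which the submitters' processing notes name mm10. The FOS family genes are Fos (chromosome 12, 85473901 to 85477270) and Fosb (chromosome 7, 19302696 to 19310045). Of the JUN family, Jun lies on chromosome 4 (95049036 to 95052222), and Junb (84976909 to 84978748) and Jund (70697739 to 70700616) lie on chromosome 8. Ier2 is also on chromosome 8 (84661331 to 84662852), and Zfp36 shares chromosome 7 with Fosb (28376784 to 28379228). Atf3 is on chromosome 1 (191170297 to 191183333), Dusp1 on chromosome 17 (26505591 to 26508472) and Egr1 on chromosome 18 (34861207 to 34864956). Counts are per whole gene, so no exon or isoform of Fosb or any other of the 10 is resolved.

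**Figure D1:**
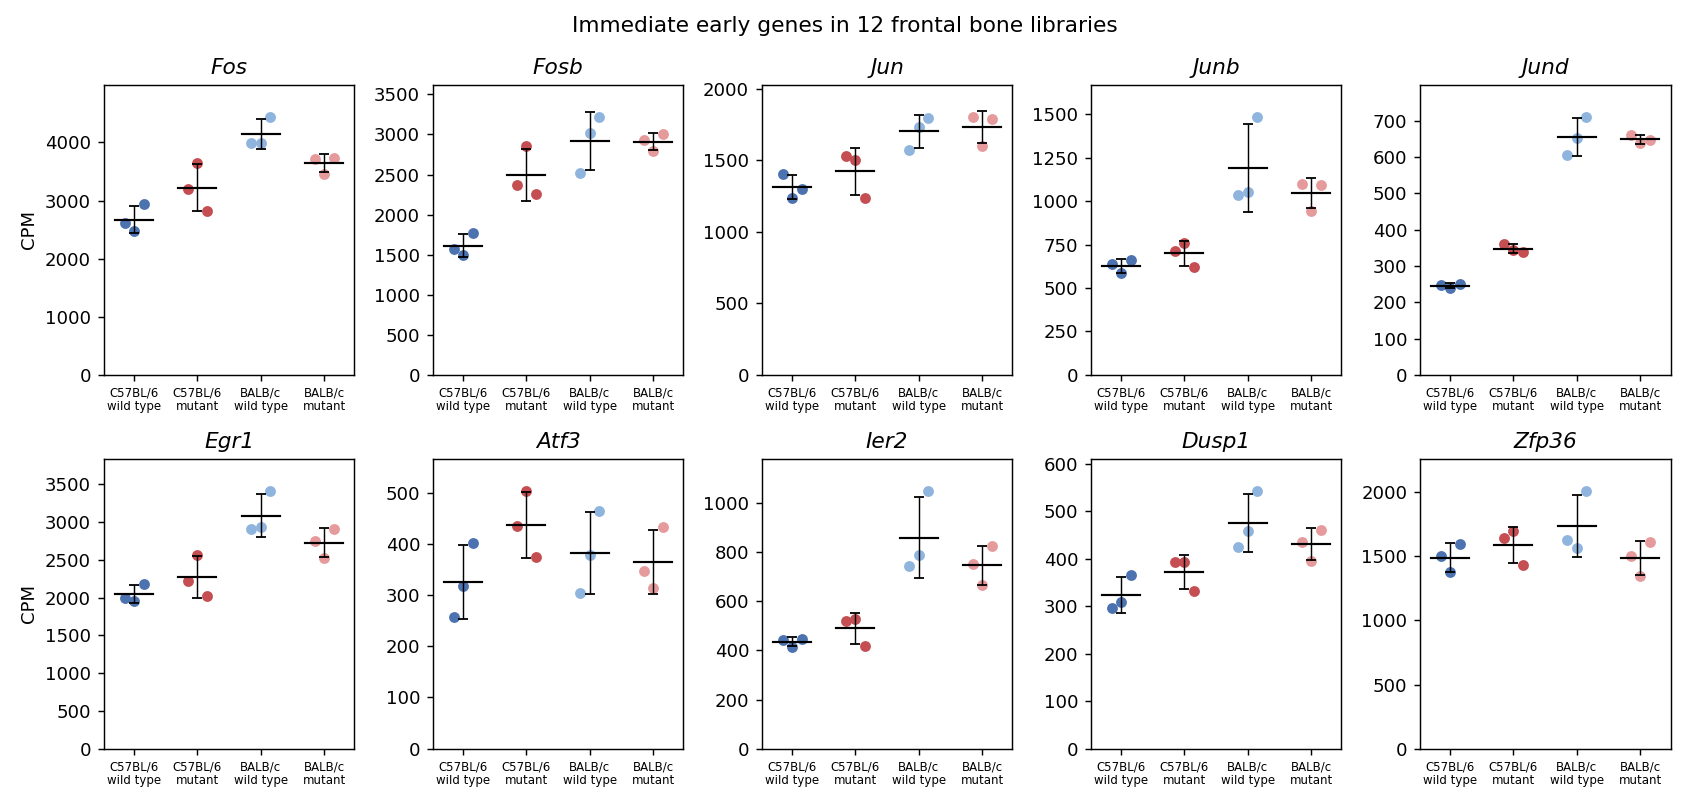
Level of each gene in CPM (vertical axis, from 0) in each of the 12 libraries, by group (horizontal axis); points are libraries, the wide line is the group mean and the error bar 1 SD (n = 3). The Jund points of the 4 groups run from 239.4 to 710.2 CPM with no overlap between strains, whereas those of Zfp36 overlap between groups.

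The Crouzon mutation on the C57BL/6 background was compared first, within 1 flow cell. Fosb and Jund were higher in the mutants, by 1.54-fold and 1.41-fold, and the other 8 genes did not pass the test. The table of all genes was fitted with edgeR's quasi-likelihood model, and a gene was called at a Benjamini-Hochberg adjusted p under 0.05. This called 23.9% of all genes in this comparison, and 11.3% as higher, so a count of 2 of 10 is near the background share.

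Fosb encodes a FOS family protein whose truncated splice form is known for raising bone mass when overexpressed. Its level was 1567, 1500 and 1774 CPM in C57BL/6 wild type replicates 1, 2 and 3 and 2371, 2856 and 2251 CPM in mutant replicates 4, 5 and 6. The lowest mutant library was above the highest wild type library, and the log2 fold change was 0.63 (SE 0.112, edgeR adjusted p = 0.00317). Jund, whose protein is the JUN family member usually present before stimulation, was measured at 248.0, 239.4 and 250.8 CPM in wild type and at 361.4, 345.0 and 337.7 CPM in mutants. Again the groups did not overlap, and the log2 fold change was 0.50 (SE 0.0661, edgeR adjusted p = 0.000683). The transcript Gm11175 lies antisense to 919 bases of Jund in GENCODE, and the strand setting of the counting is not given in the sources used here, so reads of the pair cannot be told apart. With library sizes taken as total counts the median gene shifted by -0.20 on the log2 scale and the calls of Fosb (0.43) and Jund (0.31) held.

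Fos itself had 2606, 2476 and 2932 CPM in C57BL/6 wild type and 3201, 3640 and 2824 CPM in mutants. Mutant replicate 6 lay below wild type replicate 3, so the groups overlapped. The log2 fold change of Fos was 0.27 (SE 0.0988) with an edgeR adjusted p of 0.0651. The call of Fos depended on the fit. It passed with DESeq2 (adjusted p = 0.0132) and with edgeR when wild type replicate 3 (adjusted p = 0.0355) or mutant replicate 6 (adjusted p = 0.0475) was left out. It did not pass in the other 4 fits without 1 library (adjusted p up to 0.258), nor with total counts, where it was at 0.08 (adjusted p = 0.574), and the authors' deposited table gives it a q-value of 0.117. Atf3, a stress-induced factor of the ATF family, had 257.8, 317.2 and 401.4 CPM in wild type and 435.4, 503.8 and 374.6 CPM in mutants. Its log2 fold change was 0.43 (SE 0.189, edgeR adjusted p = 0.115), with overlapping groups. Atf3 passed in 1 of 6 fits without 1 library, that without wild type replicate 3 (adjusted p = 0.0441), and in none of the 7 other alternatives, among them DESeq2 (adjusted p = 0.139). The authors' deposited table gives Atf3 a log2 value of 0.39 with a q-value of 0.0399.

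The remaining 6 genes had log2 fold changes from 0.09 (Zfp36) to 0.20 (Dusp1, a phosphatase that switches off MAP kinases). Jun, the main partner of FOS, was at 0.12 (SE 0.0946), and Junb and Ier2 at 0.16 and 0.17. Egr1 was at 0.15 (SE 0.101). All 10 values were above 0 under TMM, but with total counts those of Jun (-0.08), Junb (-0.04), Egr1 (-0.04), Ier2 (-0.03) and Zfp36 (-0.10) fell below it. The median of the 10 was 0.19 against 0.00 over all genes. Several other measures moved with genotype in C57BL/6. Macrophage and osteoclast markers (5 of 6 in the table, none at 0) summed to 3600 to 4420 CPM in wild type and 7540 to 8420 CPM in mutants, osteoblast markers to 67200 to 116000 and 129000 to 154000 CPM, and chondrocyte markers (7 of 7, none at 0) to 4820 to 7110 and 274 to 2710 CPM. Erythroid markers (5 of 8 in the table, none at 0) summed to 172 to 234 CPM in wild type and 46.1 to 73.0 CPM in mutants, and ciliated epithelial markers (5 of 7, 2 of them at 0 in at least 1 of the 12 libraries) to 102 to 209 and 3.64 to 53.3 CPM. Olfactory and basal epithelial markers (6 of 6 in the table, 5 of them at 0 in at least 1 of the 12 libraries) summed to 216 to 471 CPM in wild type and 0.63 to 109 CPM in mutants. Endothelial markers (6 of 6, none at 0) summed to 364 to 440 CPM in wild type and 468 to 625 CPM in mutants. The sums of smooth muscle markers (5 of 5, none at 0) were 362 to 408 and 311 to 340 CPM. The part of these in the result was not tested. Mutant replicate 6, the mutant library with Y-linked transcripts like the wild type libraries, had 2251 CPM of Fosb and 337.7 CPM of Jund, both above the 3 wild type libraries. It is 1 library, and the part of sex in the result was not tested.

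On BALB/c none of the 10 passed between mutants and wild type. The edgeR fit called 0 of them, 0 had an unadjusted p under 0.05, and DESeq2 also called 0. Few genes were called at all in this comparison (0.136%). Fosb had 2515, 3021 and 3216 CPM in BALB/c wild type and 2937, 2793 and 3003 CPM in mutants, with a log2 fold change of 0.00 (SE 0.111). Jund had 605.3, 652.1 and 710.2 CPM in wild type and 660.3, 638.0 and 647.8 CPM in mutants, with a log2 fold change of -0.02 (SE 0.0658). For both genes the mutant libraries lay inside the wild type range. The other values ran from -0.22 (Zfp36, SE 0.11) to 0.02 (Jun, SE 0.0946), and the median of the 10 was -0.16 against 0.00 over all genes. Fos, at 3991, 3986 and 4435 CPM in wild type and 3723, 3460 and 3737 CPM in mutants, was lower in each mutant library than in each wild type library, with a log2 fold change of -0.18 (SE 0.0988) and an edgeR adjusted p of 0.511. Erythroid markers summed to 179 to 293 CPM in BALB/c wild type and 363 to 451 CPM in mutants, and neutrophil markers to 550 to 649 and 771 to 845 CPM, and their part in the values of the 10 genes was not tested.

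**Figure D2:**
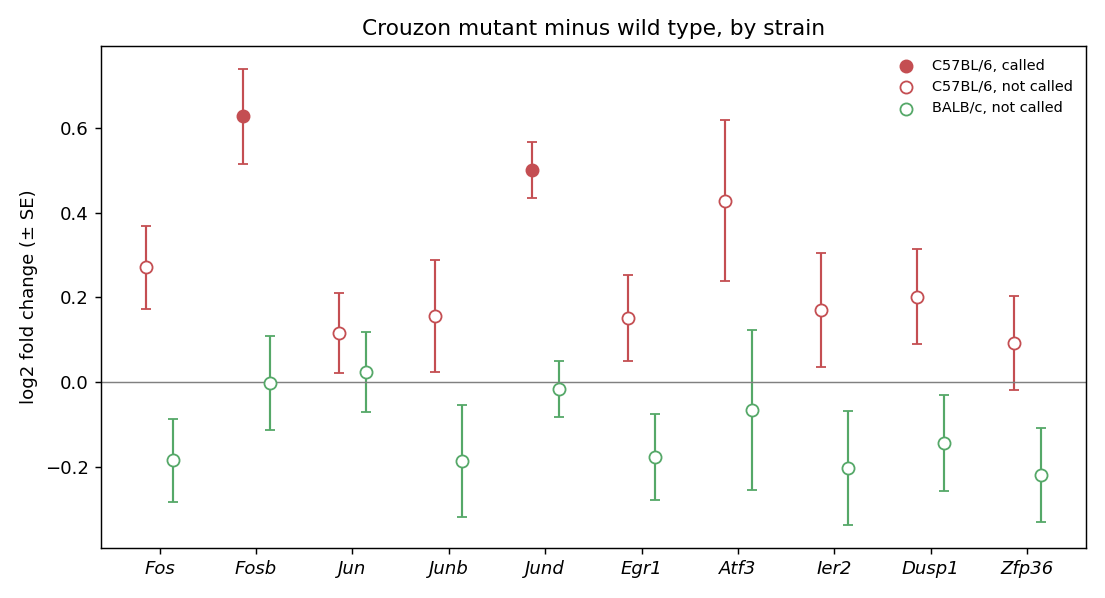
Log2 fold change of mutant against wild type (vertical axis, ± SE of the edgeR fit) for each gene (horizontal axis) in C57BL/6 (red) and BALB/c (green); filled points passed an adjusted p of 0.05. Fosb (0.63) and Jund (0.50) are the filled points, and for each gene the red point is above the green under TMM scaling, an order that total counts turn for Jun.

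Whether the genotype effect itself differed between strains was tested as an interaction, the BALB/c effect minus the C57BL/6 effect. Fosb (-0.63, SE 0.158, edgeR adjusted p = 0.0321) and Jund (-0.52, SE 0.0932, edgeR adjusted p = 0.00845) passed, both with a smaller effect in BALB/c. This test called 10% of all genes, and 4.58% as lower. For Fos the interaction was -0.46 (SE 0.14, edgeR adjusted p = 0.0592), and it passed with DESeq2 (adjusted p = 0.00569) and without C57BL/6 wild type replicate 3 (edgeR adjusted p = 0.0353). The other 7 did not pass and ranged from -0.49 (Atf3, SE 0.267) to -0.09 (Jun, SE 0.134). All 10 values were below 0 under TMM, with a median of -0.36 against 0.01 over all genes, while with total counts Jun was at 0.14. Fosb and Jund each passed in 5 of 6 alternatives other than leaving out a library, among them RLE size factors, another scaling. The exception was total counts, so the calls depended on the scaling. With total counts the median gene shifted by 0.23 and neither Fosb (-0.40, adjusted p = 0.099) nor Jund (-0.29, adjusted p = 0.12) passed. Leaving out 1 library at a time, Jund passed in 12 of 12 fits and Fosb in 5 of 12. Fosb did not pass without C57BL/6 wild type replicate 2, C57BL/6 mutant replicate 5, BALB/c wild type replicates 14 or 15, or BALB/c mutant replicates 16, 17 or 18, where its adjusted p ran up to 0.0714.

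The strains were compared next. In wild type mice 8 of the 10 were higher in BALB/c than in C57BL/6, with edgeR adjusted p-values of 0.00682 or less. Over all genes 48.5% were called in this comparison and 22.8% were higher in BALB/c. The median log2 fold change of the 10 was 0.61 against 0.00 over all genes. Under total counts, which shifted the median gene by -0.11, Jun no longer passed (0.26, adjusted p = 0.0964) and the other 7 did. Y-linked transcripts were unevenly spread between the wild types of the strains as well. The part of sex in the strain differences and in the interaction was not tested.

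The JUN family showed the widest range. Jund, at 239.4 to 250.8 CPM in C57BL/6 wild type and 605.3 to 710.2 CPM in BALB/c wild type, was 2.67-fold higher (log2 1.41, SE 0.0672, edgeR adjusted p = 7.13e-08). Junb, known as an AP-1 member of the osteoblast and osteoclast lineages, had 635.7, 585.6 and 663.5 CPM in C57BL/6 and 1034, 1051 and 1483 CPM in BALB/c wild type. The strains did not overlap, and the log2 fold change of Junb was 0.92 (SE 0.134, edgeR adjusted p = 0.000245). Jun had 1401, 1235 and 1301 CPM in C57BL/6 wild type against 1573, 1733 and 1797 CPM in BALB/c. Its log2 fold change of 0.37 (SE 0.0948, edgeR adjusted p = 0.00682) was the smallest of the 8. GENCODE places the antisense transcript Junos over 689 bases of Jun, with the same limit as for Jund.

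In the FOS family, Fosb was 1.81-fold higher in BALB/c wild type (log2 0.85, SE 0.112, edgeR adjusted p = 0.000125) and Fos 1.55-fold (log2 0.63, SE 0.0991, edgeR adjusted p = 0.000401). The libraries of the strains did not overlap for either gene. Among the other regulators, Ier2, a nuclear protein of early growth responses, had 443.9, 413.0 and 447.5 CPM in C57BL/6 wild type and 741.6, 787.3 and 1049 CPM in BALB/c (log2 0.98, SE 0.135). Egr1 had 1992, 1959 and 2179 CPM against 2908, 2937 and 3413 CPM (log2 0.59, SE 0.101). Dusp1 ran from 295.7 to 366.1 CPM in C57BL/6 and from 425.0 to 542.8 CPM in BALB/c (log2 0.55, SE 0.113). For these 3 genes too each BALB/c library was above each C57BL/6 library. The 2 genes that did not pass were Atf3 (0.23, SE 0.189, edgeR adjusted p = 0.334) and Zfp36 (0.22, SE 0.11, edgeR adjusted p = 0.124). Zfp36 had 1502, 1377 and 1595 CPM in C57BL/6 against 1627, 1563 and 2011 CPM in BALB/c, which overlap, and the antisense transcript Gm44710 lies over 249 bases of it.

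Between the mutants of the strains 4 of the 10 passed, each higher in BALB/c, against 36.9% of all genes called and 18% higher. Jund was again the largest, at 337.7 to 361.4 CPM in C57BL/6 and 638.0 to 660.3 CPM in BALB/c mutants (log2 0.90, SE 0.0664, edgeR adjusted p = 2.28e-06). Ier2, at 520.2, 529.0 and 418.1 CPM against 750.7, 664.5 and 824.6 CPM, had a log2 fold change of 0.61 (SE 0.134). Junb, at 715.6, 761.4 and 622.8 CPM against 1099, 944.4 and 1094 CPM, had one of 0.58 (SE 0.134). For these 3 genes the strains did not overlap. Jun had a log2 fold change of 0.28 (SE 0.0947, edgeR adjusted p = 0.0354), and lost the call without C57BL/6 mutant replicate 6 or BALB/c mutant replicate 16 or 18. Egr1 was at the threshold (0.27, SE 0.101, edgeR adjusted p = 0.0566). It passed with DESeq2 (adjusted p = 0.0192), and with edgeR without C57BL/6 mutant replicate 5 (adjusted p = 0.0182) or BALB/c mutant replicate 17 (adjusted p = 0.0497). Fosb (0.22), Dusp1 (0.21) and Fos (0.18) did not pass, nor did Zfp36 (-0.09) and Atf3 (-0.26). Without 1 library the number of the 10 that passed ran from 3 to 6. With total counts, which shifted the median gene by 0.12, 8 of the 10 passed, and Zfp36 was at 0.02.

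The GC content of a transcript moved with the strain difference, and strain and flow cell cannot be told apart. Transcript GC of the 10 ran from 51.9% (Fos) to 67.1% (Jund), and 5 of them (Fosb, Junb, Jund, Egr1 and Ier2) had a GC content of 55.6% or more, the range of the fifth of genes richest in GC. The median log2 strain difference in wild type over all genes was 0.11 among those genes and -0.07 in the fifth with the least GC. A fit with an offset for GC in each library, chosen after seeing the data, kept all 8 wild type calls. In that fit the difference of Jund went from 1.41 to 0.99, that of Junb from 0.92 to 0.67, that of Ier2 from 0.98 to 0.79 and that of Egr1 from 0.59 to 0.47, while Fos, at 0.63 and 0.62, barely moved. In the mutants Jund went from 0.90 to 0.53 and Jun lost its call (adjusted p = 0.0861). Within a flow cell, the C57BL/6 genotype effects of Fosb and Jund were 0.61 and 0.49 with the offset. Marker sums of other cell types also moved with strain. Neutrophil markers (7 of 7, none at 0) summed to 110 to 385 CPM over the C57BL/6 libraries and 550 to 845 CPM over the BALB/c libraries. Between the wild types, chondrocyte markers summed to 4820 to 7110 CPM in C57BL/6 and 614 to 1740 CPM in BALB/c, ciliated epithelial markers to 102 to 209 and 4.45 to 5.03 CPM, and olfactory and basal epithelial markers to 216 to 471 and 0.526 to 0.878 CPM. Endothelial markers summed to 364 to 440 and 446 to 516 CPM between the wild types, and smooth muscle markers to 362 to 408 and 320 to 327 CPM. Between the mutants, macrophage and osteoclast markers summed to 7540 to 8420 CPM in C57BL/6 and 4520 to 5150 CPM in BALB/c. Erythroid markers of the mutants summed to 46.1 to 73.0 and 363 to 451 CPM, and osteoblast markers to 129000 to 154000 and 110000 to 119000 CPM. The part of these markers in the strain differences of the 10 genes was not tested.

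**Figure D3:**
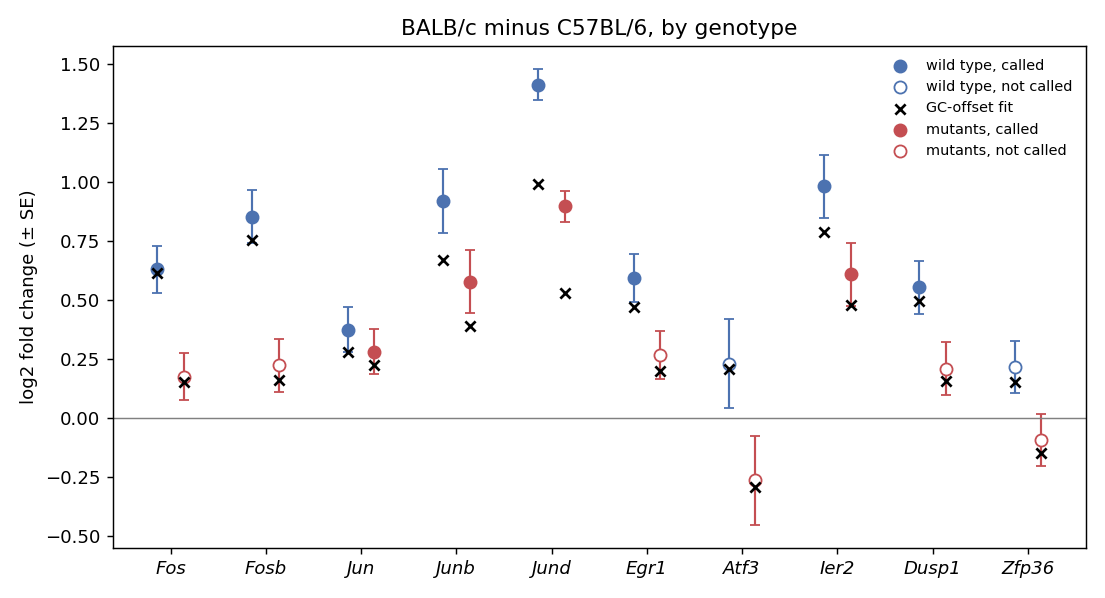
Log2 fold change of BALB/c against C57BL/6 (vertical axis, ± SE of the edgeR fit) for each gene (horizontal axis) in wild type (blue) and mutants (red); filled points passed an adjusted p of 0.05, and crosses are the values with a GC offset. The wild type point is above the mutant point for each gene under TMM scaling, an order that total counts turn for Jun, and the cross lies furthest below its point for Jund (1.41 and 0.99 in wild type).

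Ratios of counts between related genes within a library do not depend on how libraries are scaled. They were chosen after seeing the values, and with 3 libraries a group the smallest exact permutation p is 0.1 (two-sided, 0.16 after adjustment over the 16 comparisons made), so they are given as values. The Fosb to Fos ratio was 0.601, 0.606 and 0.605 in C57BL/6 wild type and 0.741, 0.785 and 0.797 in C57BL/6 mutants. In BALB/c it was 0.630, 0.758 and 0.725 in wild type and 0.789, 0.807 and 0.804 in mutants. On both backgrounds each mutant library had a higher ratio than each wild type library. The Jund to Jun ratio was 0.177, 0.194 and 0.193 in C57BL/6 wild type, 0.236, 0.230 and 0.274 in C57BL/6 mutants, 0.385, 0.376 and 0.395 in BALB/c wild type and 0.367, 0.399 and 0.363 in BALB/c mutants. It separated genotypes in C57BL/6, overlapped between genotypes in BALB/c, and separated the strains in both genotypes. The Junb to Jun ratio separated the strains, at 0.454 to 0.510 in C57BL/6 libraries and 0.590 to 0.825 in BALB/c libraries. Transcript GC differed between these genes (67.1% in Jund, 62.6% in Junb and 55.5% in Jun). Its part in the strain separation of the ratios was not tested. The Egr1 to Fos ratio stayed between 0.693 and 0.791 over the 12 libraries, and each C57BL/6 mutant library (0.693 to 0.715) was below each C57BL/6 wild type library (0.743 to 0.791).

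**Figure D4:**
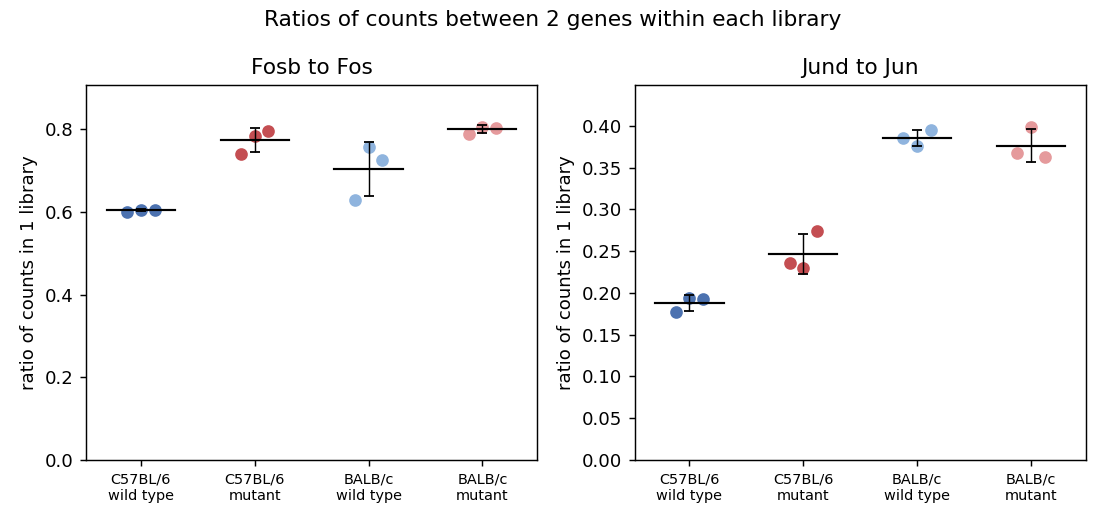
Ratio of counts (vertical axis, from 0) of Fosb to Fos and of Jund to Jun in each library, by group (horizontal axis); points are libraries, the wide line is the mean and the error bar 1 SD (n = 3). The Fosb to Fos ratio of C57BL/6 wild type (0.601 to 0.606) is below that of each other library, and the Jund to Jun ratio of each BALB/c library (0.363 to 0.399) is above that of each C57BL/6 library (0.177 to 0.274).

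Within a group the 10 genes deviated together, library by library. In BALB/c wild type, replicate 15 had the highest level of all 10, while 35.0% of all genes were highest there. C57BL/6 mutant replicate 6 had the lowest level of all 10, against 29.0% of all genes, and BALB/c mutant replicate 17 likewise, against 30.9%. C57BL/6 wild type replicate 3 was highest for 9 of the 10, against 29.2%. The median deviation from the group mean log2 CPM ran from -0.16 (C57BL/6 mutant replicate 6) to 0.17 (BALB/c wild type replicate 15). The 10 genes share a library and its scaling, so these counts describe libraries and carry no test. Y-linked transcripts were present both in the library that was lowest for all 10 genes in its group, replicate 6, and in one that was highest, replicate 15. These are single libraries of different strains, and the part of sex in the deviations was not tested.

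**Figure D5:**
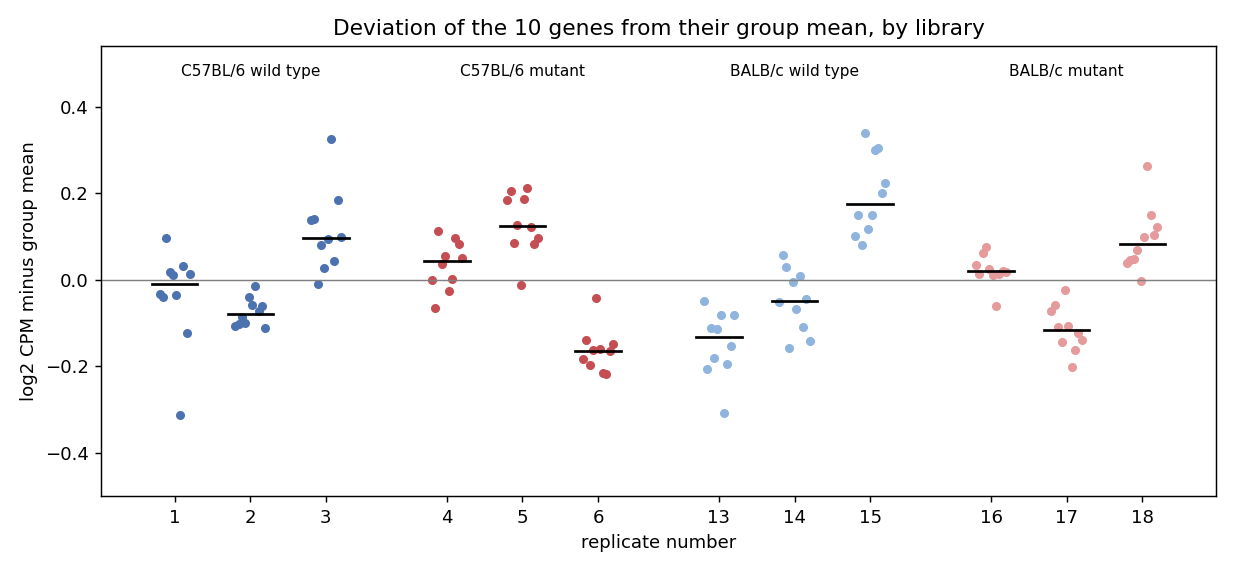
Deviation of log2 CPM from the group mean (vertical axis) for the 10 genes in each library, by replicate number within group (horizontal axis); each point is 1 gene and the black line is the median of the 10. The points of replicates 2, 6, 13 and 17 all lie below 0, and those of replicate 15 all lie above.

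Jund varied enough over the 12 libraries (SD of log2 CPM 0.633) for its nearest profiles to be named. Among them were Cst3 (root mean square difference 0.107), which encodes an extracellular protease inhibitor, and Rps24 (0.123), which encodes a ribosomal protein. The likeness is measured over 12 libraries that differ in flow cell, and no other of the 10 reached an SD of 0.5.

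A list of 41 other immediate early genes was read beside the 10. On C57BL/6 the mutants had 11 of the 41 higher and 0 lower, with a list median of 0.18, where 11.3% of all genes were higher and 23.9% were called. The largest were Egr3, a relative of Egr1 (46.09 to 58.22 CPM in wild type, 107.8 to 125.8 CPM in mutants, log2 1.12, SE 0.215), Id1, a target of BMP signalling (log2 0.75, SE 0.148), and Cyr61, a matricellular protein gene (log2 0.67, SE 0.121). In BALB/c the test called 0 of the 41 by genotype, and 0.136% of all genes. Between strains in wild type 25 of 41 were higher in BALB/c and 1 lower, with a median of 0.43, where 22.8% of all genes were higher and 48.5% were called. The largest were Klf2 (log2 1.41, SE 0.0869), Ier5l (1.18, SE 0.166) and Plk3 (1.12, SE 0.0949), and the one that was lower was Tnfaip3, an inhibitor of NF-kappaB signalling (-1.25, SE 0.27). In mutants 11 were higher and 6 lower, where 36.9% of all genes were called. The higher were led by Egr4 (1.06), Klf2 (0.94) and Ier5l (0.92), and the lower by Tnfaip3 (-0.91), Klf10 (-0.84) and Id1 (-0.80). Egr4 passed in 6 of 7 alternatives other than leaving out a library, and Tnfaip3 in 5 of 6 fits without 1 library.

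Partners and relatives of AP-1, 16 genes, gave 3 higher and 1 lower in C57BL/6 mutants, near the 23.9% of all genes called. Jdp2, whose protein pairs with JUN and represses AP-1, was 1.38-fold higher (log2 0.46, SE 0.0724) and Atf2 1.16-fold (log2 0.21, SE 0.0575), while Atf5 was lower (-1.14, SE 0.264). Atf2 lost its call with total counts (0.01, adjusted p = 0.896) and passed in 3 of 6 fits without 1 library. Atf5 lost its call when only the groups compared were fitted (adjusted p = 0.0809) and in 1 of 6 fits without 1 library (adjusted p = 0.0511). Between strains in wild type, where 48.5% of all genes were called, 7 were higher in BALB/c, led by Maff (1.10, SE 0.152), and 2 lower, Atf7 (-1.92, SE 0.19) and Atf5 (-1.22, SE 0.265). In mutants, where 36.9% of all genes were called, 2 were higher (Maff 0.58, and Maf 0.33, which passed in 3 of 6 fits without 1 library) and 3 lower, and by genotype in BALB/c, where 0.136% of all genes were called, 0 of 16 passed.

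Kinases of the pathway that leads to these genes were read next. Of 11 MAP kinase pathway genes tested, 0 passed by genotype in either strain (at an adjusted p of 0.05 in edgeR), where 23.9% of all genes were called in C57BL/6 and 0.136% in BALB/c. Between strains in wild type 2 were higher in BALB/c, Map2k2 (0.41, SE 0.0756) and Mapk3 (0.29, SE 0.0791), and 2 lower, led by Braf (-0.42, SE 0.0618). In mutants 3 were lower, led by Braf (-0.33, SE 0.0614) and Mapk8 (-0.28, SE 0.0804). The shares of all genes called were 48.5% between wild types and 36.9% between mutants. With total counts Mapk3 between wild types (adjusted p = 0.0547) and Braf (adjusted p = 0.0757) and Mapk8 (adjusted p = 0.215) between mutants did not pass. Between wild types Mapk3 passed in 5 of 7 alternatives other than leaving out a library. Between mutants Mapk8 passed in 4 of 6 fits without 1 library. Serum response factor and its cofactors, 6 genes, had 2 higher in C57BL/6 mutants, where 23.9% of all genes were called: Srf (92.86 to 124.7 CPM by group mean, log2 0.43, SE 0.0791) and Elk3 (0.24, SE 0.0696). Elk3 lost its call with total counts (0.05, adjusted p = 0.406) and passed in 3 of 6 fits without 1 library. In BALB/c Elk4, a ternary complex factor, was higher in mutants (6.113 CPM ± 0.434 in wild type and 13.77 ± 4.27 in mutants, SD, n = 3, log2 1.17, SE 0.172, edgeR adjusted p = 0.0398), a call that held in 3 of 6 fits without 1 library. Between strains in wild type 1 of the 6 was higher in BALB/c, Srf (0.30, a value that turned to -0.01 with the GC offset and did not pass with total counts, adjusted p = 0.0747), and 3 lower, led by Elk4 (-1.84, SE 0.173), and in mutants 5 were lower.

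Feedback regulators and ETS targets of ERK signalling, 13 genes, were split in C57BL/6 mutants, with 3 higher and 3 lower, where 23.9% of all genes were called. Etv5 (0.44, SE 0.0811), Spry1 (0.38, SE 0.0838) and Spred1 (0.30, SE 0.0872) were higher, and Ccnd1, which encodes cyclin D1 (-0.86, SE 0.123), Il17rd (-0.73, SE 0.22) and Spry2 (-0.21, SE 0.0694) lower. With total counts Spry1 (0.19, adjusted p = 0.0828) and Spred1 (0.10, adjusted p = 0.277) did not pass, so that split depends on the scaling. Without 1 library Spred1 and Il17rd passed in 3 of 6 fits and Spry2 in 1 of 6. In BALB/c 0 of 13 passed by genotype. Between strains its calls were mostly lower in BALB/c, with 1 higher (Dusp6, 0.22, a call lost with total counts, adjusted p = 0.263) and 7 lower in wild type, led by Il17rd (-1.60), Dusp4 (-1.21) and Etv4 (-0.95), and 0 higher and 7 lower in mutants. Of the 16190 genes, 48.5% were called between wild types (3698 higher and 4149 lower in BALB/c). Between mutants 36.9% were called (2914 higher and 3054 lower). A list of 16 heat shock genes, which tissue stress also induces, had mostly lower calls in BALB/c as well. In wild type 1 was higher in BALB/c (Dnajb4, 0.38) and 7 lower, led by Hspa1a (-1.90, SE 0.266), Hspa1b (-1.89, SE 0.291) and Hspb1 (-1.26, SE 0.174), and in mutants 0 were higher and 4 lower. Hspa1a and Hspa1b are near-identical copies whose reads the counting could have split. By genotype in C57BL/6 1 heat shock gene was higher (Dnajb4, 0.45) and 2 lower (Hspb8, -1.20, and Hspb1, -0.83), near the 23.9% of all genes called, and in BALB/c 0 of 16 passed. Dnajb4 did not pass with total counts by genotype (adjusted p = 0.143) or between wild types (adjusted p = 0.107), nor in 4 of 6 fits without 1 library in each comparison.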

How the data were processed

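RNA from 12 samples was sequenced after mRNA library preparation. The submitters' processing notes name mm10, bcl2fastq, TopHat2 2.0.6, HTSeq and DESeq2, without settings. The authors deposited raw read counts per gene, with a coding length and RPKM values that were not used here. Each deposited count was even. The authors also deposited a table of their comparisons that holds p-values, q-values and log2 fold changes, quoted for Fos and Atf3 only.

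Counts were analysed with edgeR 4.0.16 in R 4.3.3: filterByExpr (minimum count 10, minimum total 15), TMM scaling, 1 quasi-likelihood fit with 4 group means over 12 samples, and 5 contrasts, adjusted over 16190 genes by the Benjamini-Hochberg method. The SE is the log2 fold change over the root of the F statistic. Log2 CPM used a prior count of 2. Transcript GC came from GENCODE and was available for 90.3% of genes.

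The 10 genes and the lists were chosen with earlier results of these data known. Of each list, up to 3 called genes with the largest change in each direction were named per contrast, and, for a gene with an SD of at least 0.5, its 3 nearest profiles. Alternatives were DESeq2 1.42.0, RLE size factors, total counts, no filter, read pairs (counts halved), fitting only the groups compared, leaving out each library, and a GC offset (loess span 0.3, added after seeing the data). The scripts were tested on simulated data with 200 changed genes. Values of some genes that these rules select are not reported here. No number in the labels pairs samples of different groups.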

Additional observations from a re-analysis of the deposited data

Results flagged for a closer look

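Besides Klf2 (-0.47), named above for its strain difference, the genotype effect differed between strains for the following 10 genes. The interaction test was that of edgeR, at an adjusted p under 0.05. Values are the BALB/c effect minus the C57BL/6 effect on the log2 scale. Among the immediate early genes these were Fosb at -0.63 and Jund at -0.52. Related genes with negative values were Klf4 (-0.71), Cyr61 (-0.63), Plk3 (-0.63), Jdp2 (-0.51) and Etv5 (-0.51). Of the 41 other immediate early genes 4 passed, each with a negative value, which is close to the 10% of all genes called. For Plk3 the genotype effect was 0.18 in C57BL/6 and -0.45 in BALB/c, of opposite sign, and neither passed on its own (edgeR adjusted p = 0.175 and 0.0929). Elk4 (0.85), Hspb1 (1.18) and Hspb8 (1.30) had positive values. With total counts Cyr61 (adjusted p = 0.0845), Plk3 (0.093), Jdp2 (0.0785) and Etv5 (0.125) did not pass, as Fosb and Jund did not. Leaving out 1 library at a time, Fosb, Klf4 and Cyr61 passed in 5 of 12 fits, Etv5 in 6, Hspb8 in 4 and Elk4 in 3. Groups of 3 are too small for a check of single outlying libraries.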

How the results depend on the processing

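No paired analysis was possible because the groups share no replicate numbers. The wild type strain calls of Fos, Fosb, Junb, Jund, Egr1, Ier2 and Dusp1, and the C57BL/6 genotype calls of Fosb and Jund, held under each alternative run.

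Counts of calls over all genes moved. By genotype in BALB/c the 22 genes became 323 with DESeq2, 4 with total counts and 71 with only the groups compared, and 0 to 95 without 1 library. By genotype in C57BL/6 the 3867 genes became 1458 with only the groups compared and 1724 to 4833 without 1 library, and the interaction's 1626 became 2707 with DESeq2 and 624 to 3129 without 1 library. Of the 10 genes, those called numbered 2 to 4 by genotype in C57BL/6 and 1 to 3 in the interaction without 1 library. With total counts they were 0 in the interaction and 8 between mutants of the strains.

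Total counts changed the split of calls over all genes: by genotype in C57BL/6 1835 higher and 2032 lower became 616 and 4064, between wild types 3698 and 4149 became 2221 and 4909, between mutants 2914 and 3054 became 4039 and 1915, and in the interaction 884 and 742 became 1672 and 175.

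Signs turned for these values, all but Srf with no call in the reported fit. With total counts, C57BL/6 genotype values of Jun, Junb, Egr1, Ier2 and Zfp36 were -0.082, -0.040, -0.043, -0.025 and -0.10, Zfp36 between mutants was 0.022 and the interaction of Jun 0.14. By genotype in BALB/c, Fosb was 0.0017 with DESeq2 and with RLE, 0.031 with total counts, 0.0025 with no filter, 0.0013 with read pairs and 0.022 with the GC offset, and Jund was 0.019 with total counts and 0.023 with the GC offset. Without 1 library, Fosb ran from -0.092 to 0.073, Jund from -0.063 to 0.045, Jun from -0.023 to 0.080, Junb from -0.27 to 0.0043 and Atf3 from -0.21 to 0.097. Srf between wild types, called at 0.30, was -0.011 with the GC offset. The cause of these moves was not tested. Each of the 10 genes had at least 7950 counts per library. The effect of the number of libraries was not tested.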
